A study of Mus musculus with 20 samples.

Results

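Of the 12710 genes tested on 20 mouse expression arrays, 8 genes of antigen presentation by major histocompatibility complex (MHC) class II were followed across 6 sample labels. They were H2-Aa, H2-Ab1, H2-Eb1, H2-DMa, H2-DMb1, Cd74, Ciita and Ctss, taken by the gene symbol of the array annotation, each read from its brightest probe over the 20 arrays. All 8 had a probe above background on at least 2 arrays, so all 8 were tested, and together they had 14 probes. Values are deposited log2 intensities, and 7.12 was taken as the background threshold.

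The series compared T cell acute lymphoblastic leukaemia (T-ALL), thymus grafts that sustain their own thymopoiesis, and normal thymus. Leukaemia marked Rag- (3 arrays), other T-ALL (7 arrays) and thymus grafts taken at 10 weeks (4 arrays) were from F1(WB x B6/Ly5.1) mice, where Ly5.1 is an allele of the leukocyte antigen CD45. Host splenocytes (2 arrays) came from the WB background, and wild-type splenocytes (2 arrays) and wild-type thymocytes (2 arrays) from C57BL/6. All leukaemia arrays are labelled as a re-analysis. The labels give neither the meaning of Rag- nor the genotype of the hosts, and they do not say whether arrays of one label came from separate mice. P-values therefore measure only the spread between these arrays, and the number of arrays limits their precision.

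MHC class II molecules display peptides from endocytosed proteins to CD4 T cells. Dendritic cells, B cells, macrophages and thymic epithelium carry them, whereas mouse thymocytes and T cells make little or none, so in thymus or leukaemia RNA these transcripts are commonly read as a sign of accompanying cells. CIITA is the master coactivator of the pathway: it docks on factors bound to the X and Y boxes of class II promoters. The invariant chain encoded by Cd74 occupies the new class II groove, cathepsin S (Ctss) trims it to a short remnant, and H2-DM, made of the Dma and Dmb chains, exchanges that remnant for peptide. In bulk RNA, fewer cells of a type and less RNA per cell cannot be told apart.

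Promoters are shown for 3 members that carried the letters of the Y box close before the start site. The Pearson r of their values was 0.84 (H2-Aa and H2-Eb1), 0.86 (H2-Eb1 and H2-DMb1) and 0.66 (H2-Aa and H2-DMb1). RefSeq promoters (build GRCm38.p6, 250 bases before to 50 bases after the start site) were given for 5 members. Searched on both strands were the Y box core ATTGG and an X box core AGNNACNGA, and capitals mark every match. The promoter of H2-Aa, the alpha chain of I-A, lies at chr17:34287774-34288073 on the minus strand, that of H2-Eb1, the beta chain of I-E, at chr17:34305617-34305916 on the plus strand, and that of H2-DMb1 at chr17:34152941-34153240 on the plus strand.
H2-Aa: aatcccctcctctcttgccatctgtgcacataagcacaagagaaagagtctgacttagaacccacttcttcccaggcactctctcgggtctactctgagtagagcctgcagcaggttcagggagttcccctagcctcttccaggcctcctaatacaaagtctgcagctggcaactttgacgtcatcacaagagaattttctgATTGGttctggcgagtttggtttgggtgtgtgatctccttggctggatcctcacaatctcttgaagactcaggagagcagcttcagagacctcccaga
H2-Eb1: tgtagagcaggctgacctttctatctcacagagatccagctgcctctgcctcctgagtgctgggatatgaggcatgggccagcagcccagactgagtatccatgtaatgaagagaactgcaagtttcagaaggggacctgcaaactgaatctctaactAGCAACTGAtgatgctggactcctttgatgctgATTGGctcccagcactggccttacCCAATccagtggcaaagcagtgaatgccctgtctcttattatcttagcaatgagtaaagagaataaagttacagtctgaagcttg
H2-DMb1: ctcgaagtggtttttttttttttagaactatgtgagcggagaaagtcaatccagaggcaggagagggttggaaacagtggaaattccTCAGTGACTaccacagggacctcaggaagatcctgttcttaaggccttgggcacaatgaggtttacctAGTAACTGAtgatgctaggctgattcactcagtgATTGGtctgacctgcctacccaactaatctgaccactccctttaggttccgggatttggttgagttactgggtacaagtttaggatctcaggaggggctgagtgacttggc
The ATTGG letters began 48 bases before the start site in H2-Aa, 59 in H2-Eb1 and 61 in H2-DMb1. H2-Eb1 carried AGCAACTGA at 92 bases and H2-DMb1 AGTAACTGA at 95 bases before the start site. A second match on the other strand stood in H2-Eb1 (CCAAT at 35 bases) and in H2-DMb1 (TCAGTGACT at 163 bases). The pattern AGNNACNGA had no match in the H2-Aa window, and other forms of the X box were not searched. Among the promoters not shown, Ctss and H2-DMa promoter 1 held neither core. H2-DMa promoter 2 held only ATTGG, 198 bases before the start site. Of all 32851 promoters in the table, 37.4% held ATTGG, 17.7% held AGNNACNGA and 6.54% held both, so these matches describe the letters and name no bound factor.

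Several arrays had marker values that go against their labels, which touches every comparison with the spleen and wild-type labels. On wild-type thymus 1, the mean of 7 T cell receptor complex genes was 9.18 and that of 13 neutrophil genes 13.35, against 12.39 and 9.47 on wild-type thymus 3. The neutrophil mean was highest of all arrays on wild-type spleen 1 (13.52). Wild-type spleen 3 had a mean of 10.34 over 9 double-positive thymocyte genes, against 8.59 on wild-type spleen 1. On host spleen 4 and 5 the same thymocyte mean was 11.47 and 11.28, beside 11.38 and 11.43 on grafts 1 and 4. Named member differences whose call or direction turned on one of these arrays are given with and without it. Comparisons of host spleen have no arrays outside host spleen 4 and 5, so they were repeated only with one of these left out.

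The class II genes varied more between arrays of one label than most genes did. Cd74 had a within-label SD of 1.69 on the log2 scale, larger than that of 99.7% of the genes tested, whose median SD was 0.28. H2-Eb1 (1.39), H2-Ab1 (1.38) and H2-Aa (1.07) exceeded 99.1%, 99.1% and 97.6% of the genes. The SD was 0.80 for H2-DMb1, 0.78 for H2-DMa, 0.47 for Ctss and 0.38 for Ciita. From its lowest to its highest array Cd74 spanned 97.7-fold, H2-Ab1 35.3-fold, H2-Eb1 33.1-fold and H2-Aa 13.1-fold, against 2.33-fold for the median gene. The label accounted for 46.7% of the variance of Ctss and 40.7% of that of H2-Aa, beside a median of 39.3% over all genes tested. For the other 6 members the share lay below that median, between 7.43% (Ciita) and 27.7% (H2-DMb1), with 21.1% for Cd74.

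**Figure D1:**
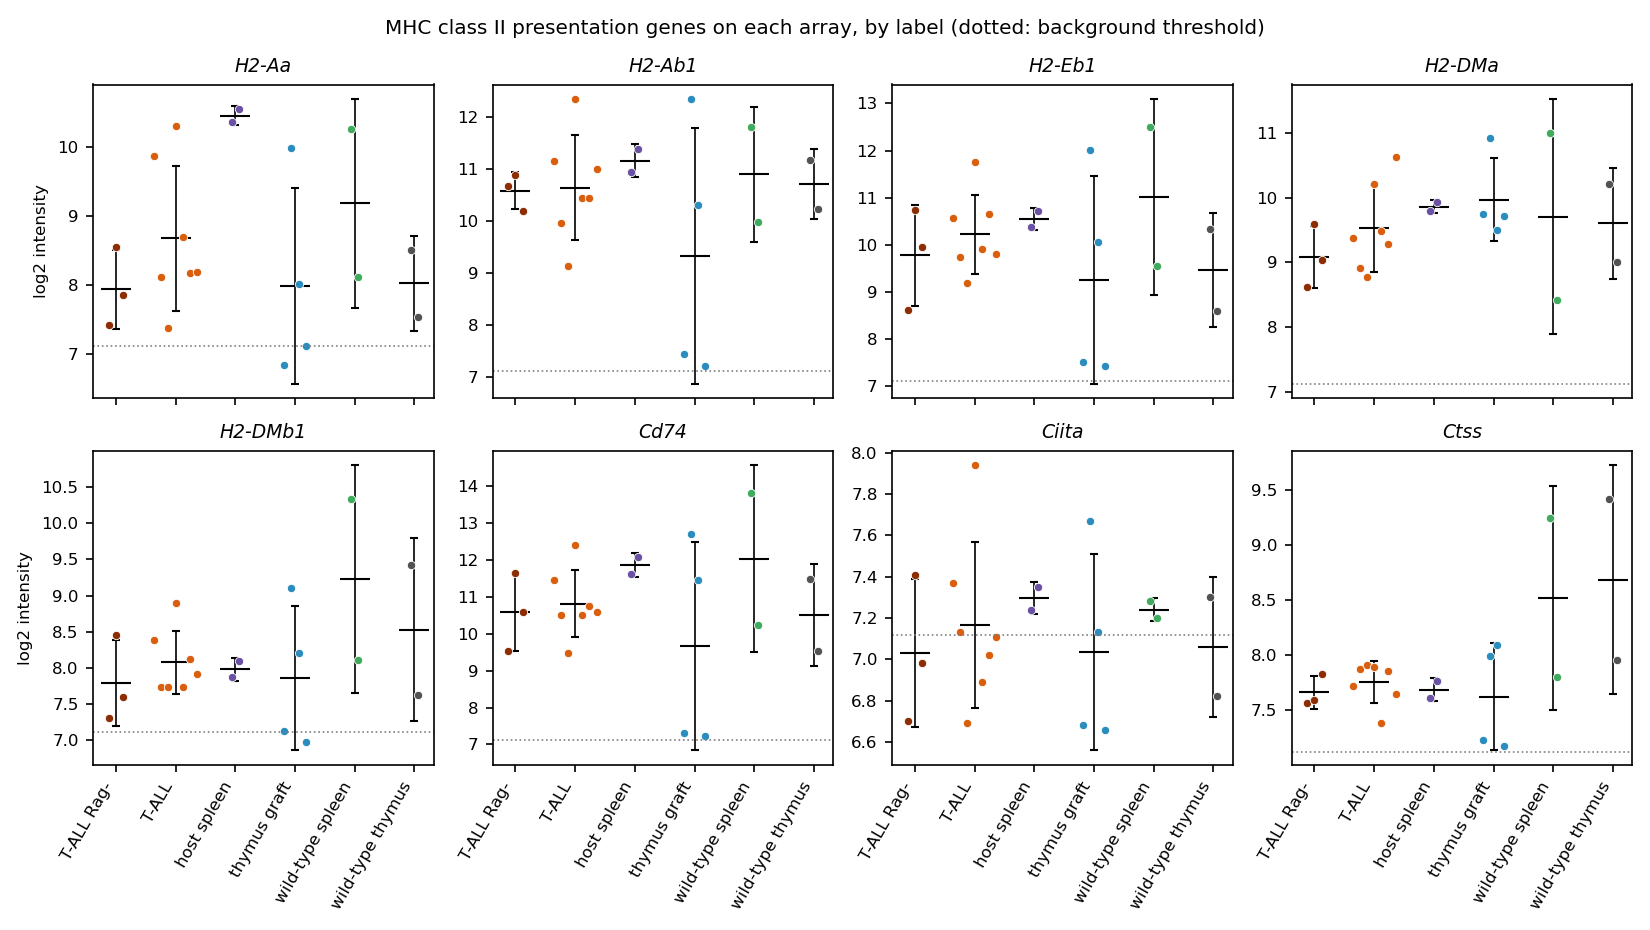
Log2 intensity of the 8 genes (vertical axes, each with its own range) on every array, grouped by label. Points are arrays, bars show the mean and SD of a label, and the dotted line marks the background threshold of 7.12. The 4 graft arrays of Cd74 lie between 7.22 and 12.71, a range that holds every T-ALL array.

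The chains of I-A and I-E and the invariant chain set the pattern. Cd74 read 9.52, 10.59 and 11.66 on the Rag- arrays. On the other T-ALL arrays its lowest, median and highest values were 9.48, 10.59 and 12.42. Grafts 1 to 4 read 7.30, 12.71, 11.45 and 7.22, so grafts 1 and 4 stood near background, graft 2 above every leukaemia and graft 3 within the range of the leukaemias. Host spleens read 11.63 and 12.09, against 13.83 and 10.24 on wild-type spleens and 11.48 and 9.54 on wild-type thymus. The wild-type spleens lay 3.59 apart, further than any pair of label means.

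H2-Ab1, the beta chain of I-A, followed Cd74 closely (Pearson r = 0.92 over 20 arrays). It read 10.88, 10.19 and 10.68 on Rag- arrays and between 9.14 and 12.34, with a median of 10.44, on T-ALL arrays. Grafts 1 to 4 read 7.44, 12.35, 10.31 and 7.21. As for Cd74, graft 2 was the highest of the grafts and grafts 1 and 4 were the lowest of all 20 arrays. H2-Eb1 repeated the order, with 9.19 to 11.75 on T-ALL arrays and 7.52, 12.02, 10.07 and 7.44 on grafts 1 to 4. The r of H2-Eb1 with Cd74 was 0.97, the highest of the 28 pairs of members, whose median r was 0.72.

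H2-Aa departed from its partner chain on a few arrays. It was highest on host spleens 5 and 4 (10.55 and 10.35), and high on T-ALL 4 and 1 (10.30 and 9.87), graft 2 (9.98) and wild-type spleen 1 (10.25). Every other array read 8.69 or lower. Graft 1, at 6.84, was the only array below the threshold. The labels differ in strain, the H2 genes are polymorphic between strains, and the part of probe match in these values was not tested.

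H2-DMa did not share the low level of grafts 1 and 4. It read 9.59, 9.04 and 8.62 on Rag- arrays and between 8.77 and 10.63, with a median of 9.38, on T-ALL arrays. Grafts 1 to 4 read 9.75, 10.92, 9.50 and 9.72. On grafts 1 and 4 the departure of H2-DMa from its mean over 20 arrays was 0.14 and 0.11, whereas that of Cd74 was -3.45 and -3.53. The lowest array was wild-type spleen 3 (8.42). H2-DMa had a median r of 0.52 with the other members, against 0.87 among H2-Aa, H2-Ab1, H2-Eb1 and Cd74. A second H2-DMa probe moved with the first (r = 0.93), and read 8.70 and 8.73 on grafts 1 and 4.

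H2-DMb1, the partner chain of H2-DMa, kept to the common pattern, with 7.73 to 8.90 on T-ALL arrays and 7.13, 9.10, 8.21 and 6.98 on grafts 1 to 4. Its highest values were on wild-type spleen 1 (10.34) and wild-type thymus 1 (9.42). The near-identical H2-DMb2 read 10.39 and 9.97 on the same arrays, and signal shared between these genes cannot be told apart.

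Ciita was dim: its probe exceeded the threshold on 11 of 20 arrays, with 7.94 on T-ALL 4 and 7.67 on graft 2 as its highest values. Rag- 10 read 6.70, T-ALL 3 read 6.69 and grafts 1 and 4 read 6.68 and 6.66, all below the threshold. Despite its narrow range, the r of Ciita with Cd74 was 0.81. A second Ciita probe was above background on no array. Ctss behaved differently: it was highest on wild-type spleen 1 (9.24) and wild-type thymus 1 (9.42) and lay between 7.17 and 8.09 on the other 18 arrays.

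**Figure D2:**
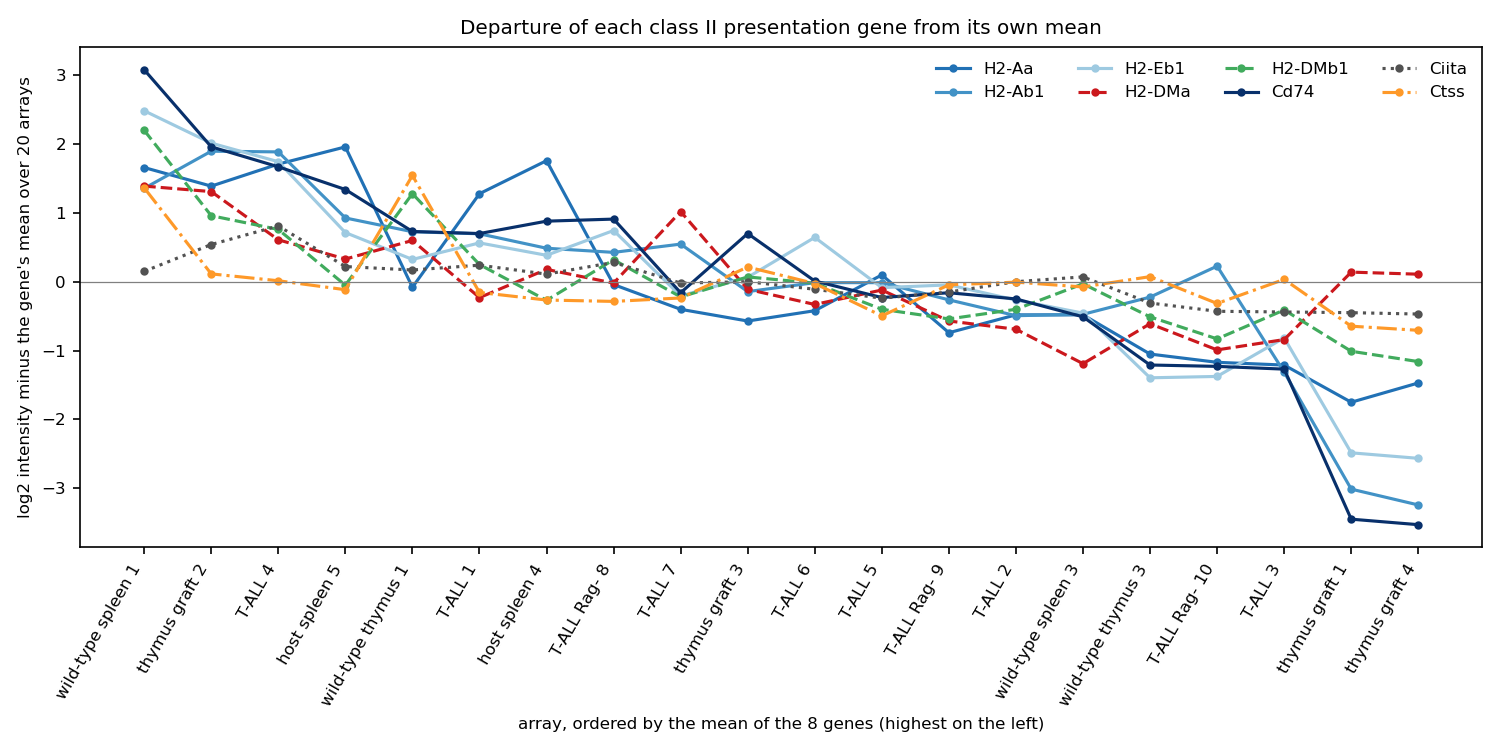
Departure of each gene from its own mean over 20 arrays (vertical axis, log2) on arrays ordered by the mean of the 8 genes, highest on the left. Lines join values of one gene across arrays and carry no order in time. Cd74, H2-Ab1, H2-Eb1 and H2-Aa are lowest on grafts 1 and 4 at the right, where H2-DMa lies at 0.14 and 0.11.

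The mean of the 8 genes was highest on T-ALL 4 (10.22), graft 2 (10.34) and wild-type spleen 1 (10.78). It was 7.49 on graft 1 and 7.44 on graft 4, the lowest of all arrays, and T-ALL 3 followed at 8.29. In 7 of the 8 genes grafts 1 and 4 were the lowest arrays. Ordered by label mean, the host or wild-type spleen label led for 6 genes, wild-type thymus for Ctss (8.69 ± 1.04 SD, n = 2) and the grafts for H2-DMa (9.97 ± 0.64 SD, n = 4). Of the 40 neighbouring label pairs in these orders, 39 differed by less than the larger of their SDs. The exception was Cd74 in host spleen (11.86 ± 0.33 SD, n = 2) above T-ALL (10.82 ± 0.91 SD, n = 7).

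No class II gene passed the test in any of the 8 comparisons. All 64 gene contrasts had an adjusted p of 0.15 or more (limma, Benjamini-Hochberg over 12710 genes), and 3 had an unadjusted p under 0.05. These 3 were 1 each in T-ALL against wild-type thymus, grafts against wild-type thymus and host spleen against grafts. There 1795, 2578 and 999 of the 12710 genes had an unadjusted p under 0.05. The wide intervals show how little these arrays could resolve for the most variable members: for Cd74 the 95% interval reached 2.02 on either side of the T-ALL and graft difference. A change that misses the test is not shown to be absent.

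The first comparison set T-ALL against the thymus grafts. In it 0.323% of all genes were called (41 of 12710), and 0 of the 8 members. H2-Ab1 averaged 10.64 ± 1.01 in T-ALL and 9.33 ± 2.46 in grafts (SD, n = 7 and 4), a log2 fold change of 1.31 (SE 0.79, adjusted p = 0.43). Cd74 averaged 10.82 ± 0.91 in T-ALL and 9.67 ± 2.83 in grafts, a difference of 1.15 (SE 0.96, adjusted p = 0.59). The other Cd74 probes gave differences of 1.00 and, for the dimmest, above background on 17 arrays, 0.13. Those of H2-Ab1 gave 1.16 and 0.93. For H2-Eb1 the difference was 0.97 (SE 0.79, adjusted p = 0.58) and for H2-Aa 0.68 (SE 0.61, adjusted p = 0.63). The T-ALL and graft arrays overlapped for all 8 genes.

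H2-DMa was the single member with a lower mean in T-ALL, at 9.53 ± 0.67 against 9.97 ± 0.64 in grafts, a difference of -0.45 (SE 0.45, adjusted p = 0.67). H2-DMb1 (0.22), Ciita (0.13) and Ctss (0.13) differed by less than their standard errors. The median difference of the 8 genes was 0.45, beside 0.01 over all genes tested. It depended on grafts 1 and 4: without graft 1 it was 0.16, without graft 4 it was 0.17, and without graft 2 it was 0.99. Both sides of the comparison were present on chips 1 and 2. On chip 1 alone the Cd74 difference was 0.47 and on chip 2 alone 1.90. H2-DMa differed by -1.31 on chip 1 and 0.05 on chip 2, and none of these 4 values was called.

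Leukaemias marked Rag- had a lower mean than other T-ALL for all 8 members, and none was called. Here 0% of the genes were called (0 of 12710, with 652 at an unadjusted p under 0.05). The largest difference was that of H2-Aa, which averaged 7.94 ± 0.57 in Rag- and 8.67 ± 1.05 in T-ALL (SD, n = 3 and 7), a difference of -0.73 (SE 0.68, adjusted p = 0.92). H2-DMa differed by -0.44 (SE 0.50) and H2-DMb1 by -0.29 (SE 0.51). The members' median was -0.26, and it was -0.11 without T-ALL 4 and -0.66 without Rag- 8. The Rag- arrays shared a chip with T-ALL 7 alone.

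Against thymus grafts, the Rag- leukaemias split the members 4 and 4, and 0 were called where 0.0157% of all genes were (2 of 12710). H2-Ab1 averaged 10.58 ± 0.36 in Rag- and 9.33 ± 2.46 in grafts, a difference of 1.26 (SE 0.96, adjusted p = 0.55). Cd74 differed by 0.92 (SE 1.17) and H2-DMa by -0.89 (SE 0.55, adjusted p = 0.45). Chip and group cannot be told apart here, since no Rag- array shared a chip with a graft. The T-ALL and Rag- comparisons share the graft arrays.

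**Figure D3:**
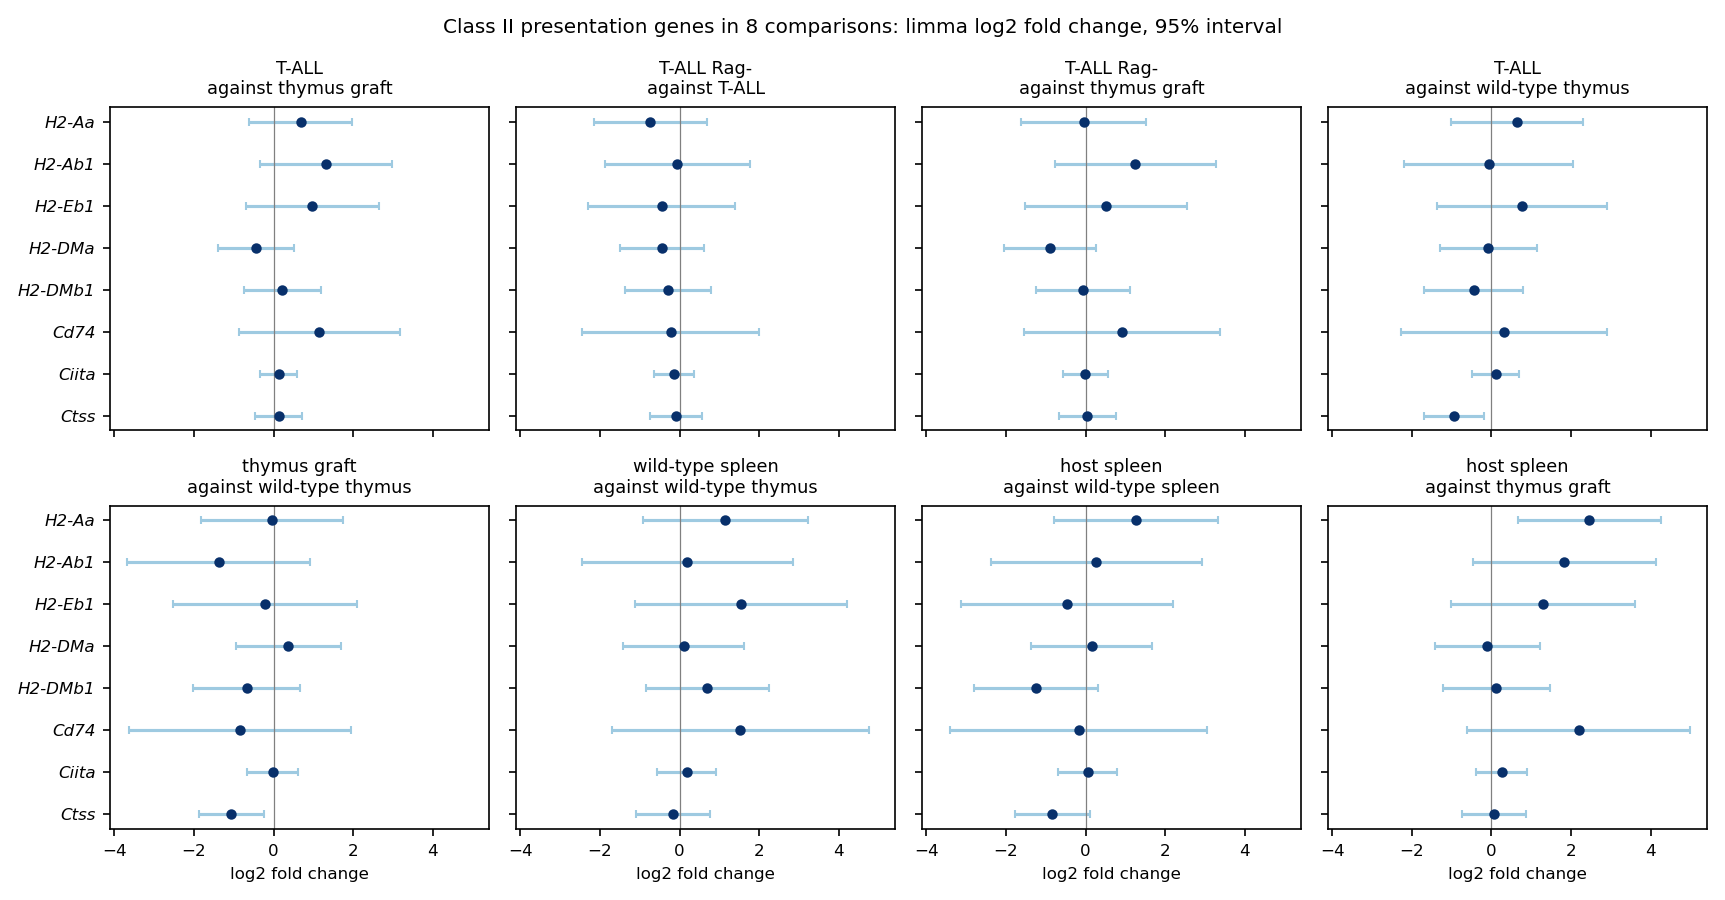
Log2 fold changes of the 8 genes in each of 8 comparisons (horizontal axis, points) with 95% intervals from limma (bars). In T-ALL against thymus graft every interval includes 0, and that of Cd74 runs from -0.87 to 3.17.

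Against wild-type thymus, Ctss had the smallest unadjusted p of the members, in T-ALL and in grafts. It had a lowest, median and highest value of 7.38, 7.85 and 7.91 in T-ALL and 9.42 and 7.95 in wild-type thymus. The difference was -0.93 (SE 0.36, adjusted p = 0.26), and 0.0315% of all genes were called (4 of 12710), with 0 members. In grafts Ctss read 7.23, 7.99, 8.09 and 7.17, a difference from wild-type thymus of -1.07 (SE 0.39, adjusted p = 0.15), where 0.0787% of all genes were called (10 of 12710) and 0 members. Both differences turned on wild-type thymus 1. Without that array they were -0.20 and -0.33, and without wild-type thymus 3 they were -1.67 (adjusted p = 0.014) and -1.80 (adjusted p = 0.012).

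The peptide-loading chain H2-DMb1 moved with the same array. Its difference from wild-type thymus was -0.45 in T-ALL and -0.67 in grafts, and without wild-type thymus 1 it was 0.45 and 0.23. H2-Ab1 had the largest difference between grafts and wild-type thymus (-1.38, SE 1.09, adjusted p = 0.50). H2-Aa differed by 0.65 in T-ALL, within its SE of 0.79. The mean of 18 macrophage genes lay between 8.43 and 9.95 in T-ALL and between 7.00 and 10.34 in grafts, against 12.57 on wild-type thymus 1, the highest of all arrays, and 10.00 on wild-type thymus 3. The part of macrophage RNA in the Ctss difference was not tested. The grafts and leukaemias differed from wild-type thymus also in strain and chip, which cannot be told apart from group.

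Wild-type spleen had a higher mean than wild-type thymus for 7 of the 8 members, with 0 called and 0% of all genes called (0 of 12710, 664 at an unadjusted p under 0.05). H2-Eb1 read 12.49 and 9.55 in spleen and 10.33 and 8.61 in thymus, a difference of 1.55 (SE 1.26, adjusted p = 0.999). Cd74 differed by 1.53 (SE 1.53), and H2-Aa by 1.16 (SE 0.98). Spleen 1 lay above both thymus arrays and spleen 3 between them, and without spleen 1 the Cd74 difference was -0.27. The H2-Eb1 difference was 0.08 without spleen 1 and 3.02 without spleen 3, with no call. Cd79b, a B cell receptor chain, read 11.03 on spleen 1 and 7.25 on spleen 3, and its part in the class II levels was not tested.

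Host spleen against wild-type spleen had the most genes called of the 8 comparisons, 2.98% (379 of 12710), and still 0 members. H2-Aa read 10.35 and 10.55 in hosts and 10.25 and 8.11 in wild-type spleen, a difference of 1.27 (SE 0.98, adjusted p = 0.47). H2-DMb1 read 7.87 and 8.09 in hosts and 10.34 and 8.11 in wild-type spleen, a difference of -1.25 (SE 0.74, adjusted p = 0.33). Ctss read 7.61 and 7.76 in hosts and 9.24 and 7.80 in wild-type spleen, a difference of -0.84 (SE 0.45, adjusted p = 0.27). The groups did not overlap for these 3 genes, nor for many genes of the other lists, which says little with 2 arrays on each side. The share of all genes without overlap is not given here. Each difference turned on which wild-type spleen was kept: without spleen 3 that of H2-Aa was 0.20 and that of H2-DMb1 -2.36, and without spleen 1 they were 2.34 and -0.13. Ctss was called when wild-type spleen 3 was left out (-1.56, adjusted p = 0.040), and its difference was -0.12 without wild-type spleen 1.

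H2-Aa was the member furthest apart in host spleen against thymus grafts. It read 10.35 and 10.55 in hosts and 6.84, 9.98, 8.02 and 7.12 in grafts. The difference was 2.46 (SE 0.85, adjusted p = 0.35), where 0.323% of all genes were called (41 of 12710) and 0 members. Cd74 differed by 2.19 (SE 1.33, adjusted p = 0.79) and H2-Ab1 by 1.83 (SE 1.09, adjusted p = 0.78). With one array left out these ran from 1.37 to 3.20 and from 1.13 to 2.84, lowest without graft 4 and highest without graft 2, with no call. H2-Aa was called with array weights per group (adjusted p = 0.023) and had an adjusted p between 0.023 and 1.00 over the alternatives. With one array left out its difference lay between 2.08 and 3.12. Strain and chip differed between these groups and cannot be told apart from the label.

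The other genes of the pathway were described from a list of 19, of which 18 were tested, and 0 of the 18 were called in any comparison. In T-ALL against grafts 11 had a higher and 7 a lower mean, with a median of 0.04. Ifi30, a lysosomal thiol reductase, and Lgmn, an asparaginyl endopeptidase, ran beside Ctss: on wild-type spleen 1 they read 11.31 and 12.91, and on wild-type thymus 1 they read 12.08 and 13.82. H2-Oa, a chain of the H2-DM inhibitor H2-DO, went its own way (r = -0.05 with the members' mean). It was highest on T-ALL 4 (11.22) and T-ALL 1 (10.99), read 9.91 and 10.21 on grafts 1 and 4, and was lowest on wild-type spleen 3 (7.90) and wild-type thymus 1 (8.25).

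The promoter-binding factors of class II genes that were tested did not run with the members. Rfxap, a subunit of the X box factor, had an r of -0.64 with the members' mean, and Nfya and Nfyc, subunits of the Y box factor, had -0.57 and -0.62. For Nfyb, Rfxank and Creb1 of the same list r was -0.42, -0.34 and -0.04, and Rfx5 was not among the genes tested. H2-Ea encodes the alpha chain of I-E, and the H2 b haplotype of C57BL/6 does not transcribe it. Its probe was above background on 10 arrays, highest on graft 2 at 8.26, and read 7.66 and 7.14 on wild-type spleens and 7.42 and 7.11 on wild-type thymus. H2-Eb1, its partner, was above background on all 20 arrays.

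The members' mean varied most closely with the dendritic cell list (Pearson r = 0.85, Spearman rho = 0.81 over 20 arrays that share 4 chips). For this list r was 0.60 within the 7 T-ALL arrays, 0.91 within the 6 arrays of chip 4, and 0.78 without the 2 arrays furthest from the list's median. Within T-ALL the kidney (0.88), class I (0.84) and thymic epithelium (0.81) lists ran closer to the members. The interferon gamma response list, which shares Irf8 with the dendritic cell list, had 0.52 over 20 arrays and 0.76 within T-ALL. Without wild-type thymus 1, wild-type spleen 3 and both host spleens, a choice made after the values were seen, r over 16 arrays was 0.86 for the dendritic cell list, 0.53 for B cell, 0.58 for macrophage, 0.47 for thymic epithelium, 0.58 for kidney and 0.66 for class I genes. Of the 15 dendritic cell genes 10 were tested, and the mean of those 10 lay between 7.34 and 7.89 in Rag-, 7.41 and 7.90 in T-ALL, 7.84 and 7.94 in host spleen, 7.30 and 8.08 in grafts, 7.43 and 8.08 in wild-type spleen and 7.54 and 7.78 in wild-type thymus. Itgax, Flt3 and Cd209a were not among the genes tested, and Zbtb46, Xcr1 and Clec9a exceeded background on 2, 4 and 4 arrays.

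Within the list, Irf8 and Fscn1 ran closest to the members (r = 0.85 and 0.74), whereas Ccr7 (0.44), Xcr1 (0.19), Clec9a (0.08) and Tcf4 (0.07) followed them less or not at all. Tcf4, a transcription factor of plasmacytoid dendritic cells, read 9.93 and 9.90 on grafts 1 and 4, above the 9.31 and 9.40 of grafts 2 and 3. Fscn1, an actin bundler of mature dendritic cells, read 9.13 on Rag- 8, 9.55 on T-ALL 4 and 9.89 on graft 2, against 7.03 and 7.37 on grafts 1 and 4. It read 8.48 on wild-type spleen 1 and 7.33 on wild-type thymus 1, beside 8.74 and 8.73 on host spleens. Ccr7, a homing receptor not confined to mature dendritic cells, read 8.72 and 8.48 on host spleens and 9.55 on graft 2, against 7.34 and 7.46 on grafts 1 and 4. Irf8 is a transcription factor of dendritic cells that B cells and macrophages also express. These are whole-sample values, and the part of dendritic cell RNA in the class II levels was not tested.

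The B cell list ran less closely beside the members (r = 0.37, rho = 0.42; 0.16 within T-ALL). Of its 15 genes 11 were tested, and their mean lay between 7.62 and 7.86 in Rag-, 7.49 and 8.06 in T-ALL, 7.86 and 7.94 in host spleen, 7.77 and 8.13 in grafts, 7.70 and 8.61 in wild-type spleen and 7.26 and 7.59 in wild-type thymus. Cd79b read 9.49 and 9.53 on grafts 1 and 4, the arrays with the least class II RNA, and 9.63 on graft 2. Its r with the members' mean was 0.35, below that of Fcrla (0.57), Blnk (0.54) and Cd22 (0.51). These exceeded background on 11, 9 and 9 arrays. Ighm (r = -0.10) lay between 7.57 and 14.86 and Blk (0.11) between 6.67 and 10.66, so both weigh on the list mean. The remaining genes had an r between 0.05 (Ebf1) and 0.36 (Vpreb3). Ms4a1 (CD20) stayed between 6.98 and 7.37 on every array, and Cd79a was not among the genes tested.

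The macrophage list had an r of 0.47 and a rho of 0.22 with the members' mean, and -0.49 within T-ALL. All 18 of its genes were tested. Their r with the members' mean ran from 0.14 (Marco) and 0.23 (Mertk) to 0.77 (Lyz2) and 0.78 (Lyz1), with 0.53 for C1qb. C1qb, a complement component of tissue macrophages, read between 10.08 and 11.84 on T-ALL arrays and 6.90 and 6.79 on grafts 1 and 4. Ctss was the member closest to this list (r = 0.88), followed by H2-DMb1 (0.67), whereas H2-Aa (0.07) and H2-DMa (0.08) did not run with it. Without wild-type thymus 1 and wild-type spleen 1, arrays left out after the values were seen, r over 18 arrays was 0.81 for Ctss, 0.39 for H2-DMb1 and 0.28 for the members' mean.

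The thymic epithelium list had an r of 0.45 with the members' mean over 20 arrays and 0.81 within T-ALL. H2-Aa was the member closest to it (r = 0.79), and Ctss the furthest (-0.20). Tbata, a gene of thymic stroma, was high on T-ALL 1, 4 and 5 (10.03, 10.46 and 9.71), host spleens 4 and 5 (9.93 and 10.63) and graft 2 (9.36), and at most 7.09 elsewhere. Ccl25, a thymic epithelial chemokine, was highest on host spleens (10.99 and 11.33). Krt8 and Krt18 were also highest on the arrays high in Tbata, but Psmb11 and Cldn4 were not. Psmb11 stayed between 6.90 and 7.24 on every array. Cldn4 peaked on T-ALL 7 (11.02) and read 9.74 and 9.87 on grafts 1 and 4. Of the 15 genes of the list 10 were tested: Foxn1, Epcam and Aire were not among them, Krt5 exceeded background on 2 arrays, and Krt8 on all 20.

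Some kidney tubule genes were present on graft 2, T-ALL 4 and T-ALL 1, the grafts and leukaemias with the most class II RNA. Slc34a1 and Miox were also present on T-ALL 5 (members' mean 8.88) but at background on Rag- 8 (9.36). Slc12a1 of the same list lay between 7.20 and 7.47 on all grafts and leukaemias. Slc34a1, a renal phosphate transporter, read 9.84 on T-ALL 4, 7.76 on T-ALL 1, 7.48 on T-ALL 5 and 11.30 on graft 2, and at most 6.94 elsewhere. The kidney list had an r of 0.48 with the members' mean over 20 arrays and of 0.88 within T-ALL. Without graft 2 and T-ALL 4, the arrays furthest from its median, r was 0.09, so the relation over 20 arrays rested on those arrays. The part of tissue adjoining the sample in the class II levels was not tested.

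**Figure D4:**
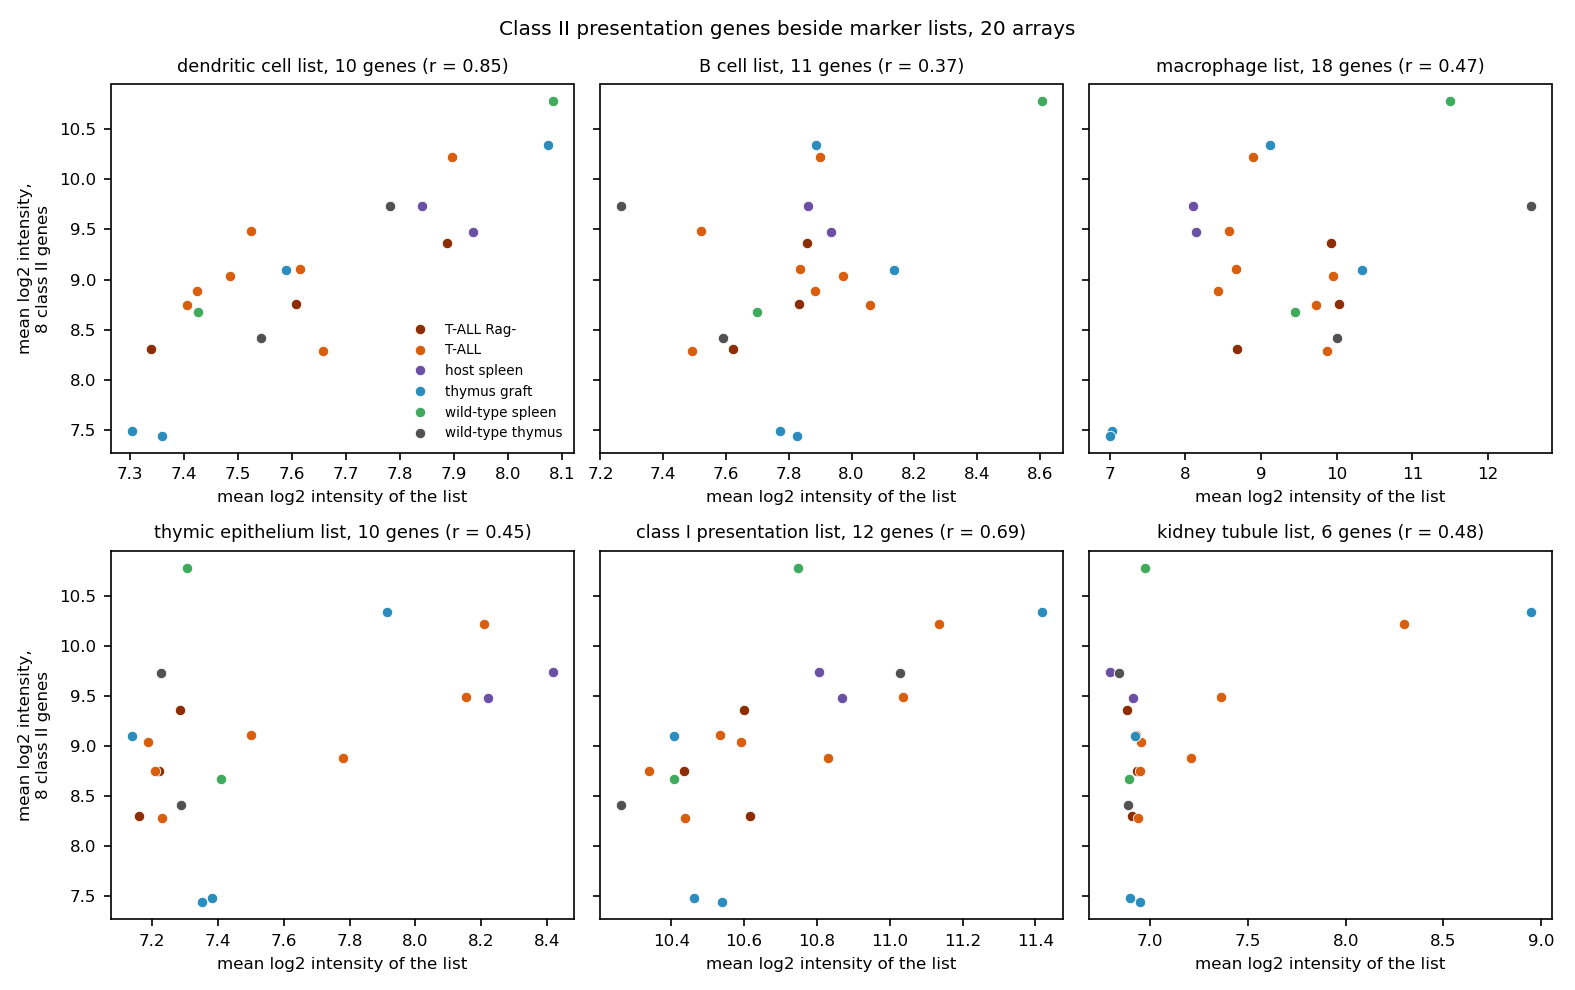
Mean log2 intensity of the 8 class II genes (vertical axes) against the mean of 6 gene lists (horizontal axes), 1 point per array, coloured by label. The Pearson r over 20 arrays stands above each panel: 0.85 for the dendritic cell list and 0.37 for the B cell list. Grafts 1 and 4 are the lowest points of every panel.

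The mean of the class I presentation genes ran beside that of the members too (r = 0.69, and 0.84 within T-ALL), and 0 of 12 tested were called in any comparison. Gene by gene, r ran from -0.26 (Psmb8), -0.08 (Tap2) and 0.17 (Psmb10) to 0.63 (H2-D1) and 0.67 (B2m), and was highest for H2-K1. H2-K1, a classical class I heavy chain, had an r of 0.88 and read 11.21 on graft 2, 11.48 on wild-type spleen 1, and 8.31 and 7.98 on grafts 1 and 4. Among 7 costimulation genes tested, Cd40, the receptor through which T cells license presenting cells, had an r of 0.81 and read 8.22 on T-ALL 4 and 8.42 on graft 2. Cd86, a CD28 ligand, was highest on graft 3 (10.61) and wild-type thymus 1 (11.16).

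By Pearson r with the members' mean over 20 arrays, the 10 nearest of the other 12702 genes were Kynu (0.89), S100a4 (0.89), H2-K1 (0.88), Sulf2 (0.86), H2-DMb2 (0.86), Irf8 (0.85), H2-M2 (0.85), Capg (0.82), Cd40 (0.81) and Nkg7 (0.81). An r above 0.8 was reached by 11 genes and one above 0.7 by 70, and the median r was -0.04. Kynu exceeded background on 4 arrays and S100a4 on 5, so their values lay near the floor on most arrays.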

How the data were processed

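Illumina arrays were hybridised with biotinylated cRNA made with the Ambion MessageAmp kit, per the labels' protocols; cells were used as single cell suspensions or sorted, per the labels. The deposited values of 46089 probes on 20 arrays are on a log2 scale and were quantile normalized by the authors before deposit, as read from the values: the median was 6.95 on every array and sorted values differed by at most 0.01. Neither the software nor a background step is named in the labels. The deposited table without normalization was not used, since its 20 value columns match no label.

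Symbols came from the platform annotation, updated through RefSeq tables (3273 changed); 35667 probes had 1 symbol and 10422 none. Background was the mode of all values (6.78) plus 3 SD (0.113) of the values below it, 7.12, and a gene was tested when a probe exceeded it on at least 2 arrays (12710 genes). The brightest probe stood for a gene. Group means were fitted over all 20 arrays with limma 3.58.1 in R 4.3.3 (intensity trend, 14 residual and 3.13 prior degrees of freedom) and contrasts were called at a Benjamini-Hochberg adjusted p under 0.05. The steps were tested on simulated data. Lists are described by counts, medians and correlations, with no test over a list.

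The members, the gene lists and the rule for named genes (the 8 members, the 10 genes closest to their mean, and from each other list those called or else its brightest) were chosen with earlier results of these data known. Not every gene given by that rule is named in the text. Genes named beyond the rule, such as Fscn1, Tbata, Slc34a1, H2-Oa, Cd79b, C1qb, Ifi30, Lgmn and Cd86, were chosen after their values were seen. Alternatives changed the background step, scaling, filter, probe rule, symbols, variance moderation, array weights, arrays in the fit and chip, and left out each array in turn; where this left 1 array in a group, that array was assumed to vary like the other groups.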

Additional observations from a re-analysis of the deposited data

How the results depend on the processing

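Over 151 alternative fits, a class II gene was called in 4. The number of members called was 1 without wild-type thymus 3 in T-ALL against wild-type thymus (Ctss, adjusted p = 0.0142) and in thymus grafts against wild-type thymus (Ctss, adjusted p = 0.0116), 1 without wild-type spleen 3 in host against wild-type spleen (Ctss, adjusted p = 0.0400), and 1 with array weights per group in host spleen against thymus grafts (H2-Aa, adjusted p = 0.0234). Leaving out single arrays otherwise gave 0 members called, a range of 0 to 1. Of 583 alternative values of named members, 570 kept direction and side of the threshold. Directions turned in T-ALL against grafts for H2-DMa (0.053 on chip 2 alone), H2-DMb1 (-0.16 on chip 1 alone, and -0.070 to 0.64 with one array left out, below 0 without graft 1 or graft 4), Ciita (-0.11 on chip 1 alone) and Ctss (-0.019 to 0.29 with one array left out, below 0 without graft 4). With one array left out, H2-DMb1 against wild-type thymus ran from -1.34 to 0.45 in T-ALL and from -1.57 to 0.23 in grafts, both positive without wild-type thymus 1, and Cd74 in wild-type spleen against thymus from -0.27, without wild-type spleen 1, to 3.32. Counts of all genes called depended on single arrays: T-ALL against grafts gave 41, and 2 to 1109 with one array left out, the highest without graft 3; Rag- against grafts gave 1 to 1123, T-ALL against wild-type thymus 0 to 1313, grafts against wild-type thymus 1 to 1437, spleen against thymus 7 to 207, host against wild-type spleen 9 to 1542 and host spleen against grafts 6 to 35. Other settings gave 0 to 224, 2 to 605, 0 to 17, 0 to 279, 0 to 3, 7 to 464 and 0 to 555 in the same order, and 0 to 22 for Rag- against T-ALL. The cause was not tested. Centring the arrays moved their values by at most 0.14 on the log2 scale. In wild-type spleen against thymus, whose labels share the numbers 1 and 3, a replicate block called 3 genes and 0 members. Differences between the numbered arrays correlated at r = 0.68 in both tissues, but the labels do not say that the numbers pair samples. Signal over background limits Ciita most: it exceeded the threshold on 11 arrays.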

Other observations

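Other presentation and effector genes stood out on the same few arrays. H2-M2, a non-classical class I gene, read 9.55 on Rag- 8, 9.75 on T-ALL 4, 10.05 on graft 2 and 11.23 on wild-type spleen 1, and 6.99 and 6.85 on grafts 1 and 4. Nkg7, a granule protein of cytotoxic lymphocytes, read 11.04 on T-ALL 4, 11.27 on graft 2, 11.22 on wild-type spleen 1 and 10.68 on wild-type thymus 1, and 7.34 to 9.56 on the other arrays. Capg, an actin-capping protein of myeloid cells, read 9.94 on T-ALL 4, 9.87 on graft 2 and 10.10 on wild-type spleen 1. These values were picked after they were seen.

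In host spleen against wild-type spleen, where no class II gene was called, Ccl25 read 10.99 and 11.33 in hosts and 7.99 and 8.69 in wild-type spleen, a log2 fold change of 2.82 (SE 0.66, adjusted p = 0.033, limma). Themis, a thymocyte signalling adaptor, read 10.98 and 10.61 in hosts and 7.00 and 9.06 in wild-type spleen, a difference of 2.77 (SE 0.61, adjusted p = 0.029). Siglech, a lectin of plasmacytoid dendritic cells, read 8.24 and 8.00 in hosts and 6.98 and 7.13 in wild-type spleen, a difference of 1.07 (SE 0.20, adjusted p = 0.014). It was also called in host spleen against thymus grafts, which read 7.08, 7.50, 6.92 and 7.12 (difference 0.97, adjusted p = 0.021). Against wild-type spleen, the calls of Ccl25, Themis and Siglech held without wild-type spleen 3 (differences of 3.17, 3.80 and 1.14) and were lost without wild-type spleen 1 or either host array (adjusted p from 0.079 to 0.24). Without wild-type spleen 1 the Themis difference was 1.74. Against grafts the Siglech difference had an adjusted p of 0.0066 to 0.44 with one array left out, and was lost without either host array, graft 3 or graft 4. These repeats were added after the values were seen. Among 16 groups of 4 to 10 arrays, 0 held a single array beyond Dixon's criterion for a member.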
